A study of Mus musculus with 2 samples.

Results

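The 8 genes Prox1, Foxc2, Nfatc1, Klf2, Klf4, Gata2, Cldn11 and Nts, of 32285 genes counted, encode factors of flow-responsive and lymphatic-type endothelium and were chosen by name. They were measured as unique molecular identifiers (UMIs, each a captured transcript) in 2 droplet libraries of mitral valve leaflets from mice of strain C57BL/6J at 1 month of age. The wild type (WT) library came from 5 pooled mice. The other came from 3 pooled Fbn1 C1039G/+ mice, which carry a cysteine replacement in 1 copy of fibrillin-1, which builds microfibrils of the matrix, and serve as a model of Marfan syndrome. Both pools were digested with enzymes before capture. A genotype had 1 library, so no difference between genotypes had a replicate check and no p-value was computed. Counts at the 3′ end of transcripts do not read the C1039G change, so the genotype itself could not be checked.

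The covering of the valve leaflets is an endothelium exposed to strong and changing blood flow. Klf2 and Klf4 are zinc finger transcription factors that shear stress induces through the MEKK3, MEK5 and ERK5 kinases and MEF2 factors, and they are known for holding endothelium in a quiescent, anticoagulant state. Prox1 sets lymphatic endothelial identity and, together with Foxc2, Gata2 and calcineurin-NFAT signalling through Nfatc1, takes part in forming the valves of lymphatic vessels. Nfatc1 is also required in the endocardium for heart valve formation. Cldn11 encodes a claudin of tight junctions, and Nts encodes the secreted peptide neurotensin.

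Endothelial cells were taken as barcodes with at least 1000 UMIs, at most 20% mitochondrial UMIs, at least 5 UMIs of Pecam1, Cdh5 and Emcn together, and under 1% of UMIs from the matrix genes Dcn, Col1a1, Col1a2 and Col3a1. Cells with at least 5 UMIs of the lymphatic vessel genes Ccl21a, Mmrn1 and Reln were left out, which removed 6 WT cells and 0 Fbn1 C1039G/+ cells. This left 257 WT and 328 Fbn1 C1039G/+ cells, of 9509 and 9744 barcodes, with a median of 11344 and 11034.5 UMIs per cell. Endothelial genes that the gate did not use were present, with Egfl7 at 1326 and 1477 CPM (the summed UMIs of a gene scaled to 1000000 UMIs of the same cells) and in 97.3% and 97.6% of cells. Ecscr was found in 95.3% and 95.7% of cells and the angiopoietin receptor gene Tek in 89.9% and 90.9%. Robo4 was low, at 12.5 and 10.9 CPM, and Cldn5, the main claudin of vessel endothelium, was found in only 12.8% and 21.6% of cells. Dcn, a gene of interstitial cells, had a UMI in 98.1% and 98.5% of the endothelial cells. Of the endothelial cells 12 WT and 10 Fbn1 C1039G/+ also met a gate for macrophages. The 2 libraries shared 17 barcodes, of which 0 were endothelial in both.

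Proximal promoters were taken from RefSeq on GRCm38.p6 for the 2 flow-induced factors and for Prox1, because these carry the comparison of the flow-type and the lymphatic-type genes. The stretches run from 5′ to 3′ on the strand of the gene and end before the annotated start of transcription. Capitals mark matches on either strand to the KLF motif CACCC or the MEF2 motif, which is CTA, 4 bases of any kind and TAG. The Klf2 stretch is chr8:72318812-72319032 on the plus strand, the Klf4 stretch chr4:55532476-55532725 on the minus strand and the Prox1 stretch chr1:190170828-190171077 on the minus strand.
Klf2: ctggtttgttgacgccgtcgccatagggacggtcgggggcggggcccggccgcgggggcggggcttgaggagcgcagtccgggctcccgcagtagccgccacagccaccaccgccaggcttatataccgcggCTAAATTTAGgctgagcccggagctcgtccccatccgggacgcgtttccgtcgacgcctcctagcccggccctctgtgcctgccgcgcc
Klf4: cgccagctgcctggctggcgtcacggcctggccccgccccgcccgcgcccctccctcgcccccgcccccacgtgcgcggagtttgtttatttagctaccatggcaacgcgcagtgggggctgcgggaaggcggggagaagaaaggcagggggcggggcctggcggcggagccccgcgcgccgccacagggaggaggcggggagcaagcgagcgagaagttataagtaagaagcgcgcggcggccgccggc
Prox1: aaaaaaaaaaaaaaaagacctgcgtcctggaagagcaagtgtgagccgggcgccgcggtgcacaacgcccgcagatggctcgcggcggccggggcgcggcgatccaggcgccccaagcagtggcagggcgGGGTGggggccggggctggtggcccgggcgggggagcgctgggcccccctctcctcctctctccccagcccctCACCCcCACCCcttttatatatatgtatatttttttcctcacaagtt
The Klf2 stretch held 1 match to the MEF2 motif and the Prox1 stretch held 3 to the KLF motif, while the Klf4 stretch held neither. The Klf2 stretch was cut to 221 bases at the annotated start, and its full window of 250 bases also held 1 match to the KLF motif. A second RefSeq entry for Prox1, chr1:190169516-190169765 on the minus strand, held 0 matches to either motif. Among 32851 RefSeq windows of 250 bases before a start, 3.20% held the MEF2 motif and 52.0% the KLF motif, so the second is common. Matches of letters do not show binding.

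In Fbn1 C1039G/+ endothelial cells Prox1, Foxc2 and Cldn11 were more than 1.5-fold higher than in WT cells. Nfatc1 and Nts each had a ratio of 1.43, and Klf2, Klf4 and Gata2 differed by under 1.2-fold. A gene counted as measured if it reached 20 CPM in 1 library and had 50 or more UMIs in all, and as called with a ratio of at least 1.5 in either direction and a 95% interval excluding 1. All 8 genes were measured. Of them 3 were called higher and 0 lower, where 6.88% of 7248 measured genes were called in either direction, 3.49% higher and 3.39% lower. The median log2 ratio of all measured genes was 0.019. Intervals here and below cover counting error only, not the spread between mice. Those for CPM and ratios also leave out the spread between cells, and those for shares treat cells as independent. They are exact, except those for a difference of 2 shares, which use Newcombe's method.

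**Figure D1:**
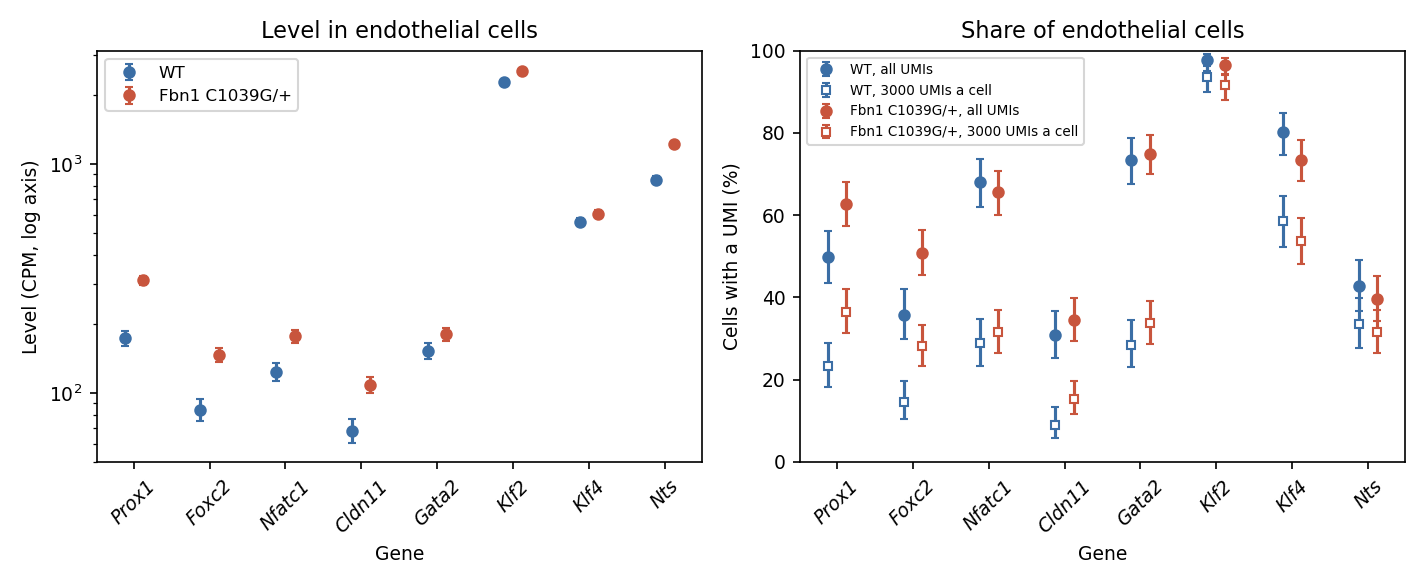
Level in CPM (left, log axis) and percent of cells with a UMI (right) of the 8 genes in endothelial cells of the WT and Fbn1 C1039G/+ libraries, with 95% intervals for counting error. Squares on the right are cells thinned to 3000 UMIs each. The levels of Prox1, Foxc2 and Cldn11 differ by more than 1.5-fold between the libraries, and those of the other genes by less. Klf2 is found in nearly every cell of both libraries.

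Prox1 (ENSMUSG00000010175, chr1:190118035-190170714, minus strand, GRCm38) stood at 173 CPM (160.6 to 187) in WT and 310.1 CPM (295 to 326) in Fbn1 C1039G/+ cells. The ratio was 1.79 (1.63 to 1.96). It was detected in 128 of 257 WT cells (49.8%) and 206 of 328 Fbn1 C1039G/+ cells (62.8%). The share was 13.0 points higher (4.91 to 20.9). With every cell thinned to 3000 UMIs, which left out 4 and 8 shallower cells, the shares were 23.3% and 36.6%. Among cells with a Prox1 UMI the level was 287 and 421 CPM, a ratio of 1.47 (1.34 to 1.61), so both the share of cells and the level within them were higher in the Fbn1 C1039G/+ library.

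Foxc2 (ENSMUSG00000046714, chr8:121116171-121118895, plus strand), a forkhead factor, stood at 84.3 CPM (75.4 to 93.8) and 147 CPM (137 to 158), a ratio of 1.74 (1.53 to 1.99). Its share of cells was 35.8% in WT and 50.9% in Fbn1 C1039G/+, and 14.6% and 28.1% after thinning. Thus Foxc2 differed between the libraries in the same direction as Prox1 at matched depth. In Prox1-negative cells it was 18.6 and 46.3 CPM, a ratio of 2.48 (1.58 to 4.002) that rests on 29 and 63 UMIs.

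Nfatc1 (ENSMUSG00000033016, chr18:80606205-80713071, minus strand) was at 124 CPM (113 to 135) and 177 CPM (166 to 189), a ratio of 1.43 (1.28 to 1.60) that was not called. Its share of cells was 68.1% and 65.5%, a difference of −2.54 points with an interval that held 0 (−10.1 to 5.17). Thinned to 3000 UMIs the shares were 28.9% and 31.6%, and this difference also had an interval that held 0. The ratio was 1.42 both in Prox1-positive and in Prox1-negative cells.

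Gata2 (ENSMUSG00000015053, chr6:88193891-88207032, plus strand), a zinc finger factor of endothelial and blood progenitors, stood at 152 CPM (140.0 to 165) and 180.4 CPM (169 to 192). The ratio of 1.19 (1.07 to 1.32) was below the threshold. It was found in 189 of 257 and 246 of 328 cells, and the difference in share was 1.46 points with an interval that held 0 (−5.59 to 8.66).

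Cldn11 (ENSMUSG00000037625, chr3:31149920-31164324, plus strand) stood at 68.2 CPM (60.3 to 76.9) and 108 CPM (99.6 to 118), a ratio of 1.59 (1.37 to 1.85). Its share was 30.7% and 34.5%, a difference of 3.71 points (−3.97 to 11.2). Thinned to 3000 UMIs the shares were 9.09% and 15.3%, a difference of 6.22 points (0.75 to 11.5), and at 6000 UMIs the difference was 6.39 points with an interval that held 0 (−1.24 to 13.7). The 5 cells with most Cldn11 UMIs held 31.0% and 34.9% of its UMIs, and without them the ratio was 1.47, below the threshold. The call also ended, at 1.47, when each cell had the same weight.

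Klf2 (ENSMUSG00000055148, chr8:72319033-72321656, plus strand) stood at 2288 CPM (2241 to 2336) and 2545 CPM (2501 to 2589), a ratio of 1.11 (1.08 to 1.14). It was detected in 97.7% and 96.6% of cells, with a median of 1882 and 2031 CPM per cell. Klf2 was therefore present in nearly all endothelial cells of both libraries.

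Klf4 (ENSMUSG00000003032, chr4:55527143-55532466, minus strand) stood at 558 CPM (535 to 582) and 608 CPM (587 to 629), a ratio of 1.09 (1.03 to 1.15). One Fbn1 C1039G/+ cell held 268 of its 3133 UMIs. The median per cell went the other way, with 342 CPM in WT and 249 CPM in Fbn1 C1039G/+ cells, and the share of cells was 80.2% and 73.5% (−6.68 points, −13.4 to 0.27). With each cell given the same weight the ratio was 0.929, so no direction held for Klf4.

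Nts (ENSMUSG00000019890, chr10:102481756-102490486, minus strand) was concentrated in a minority of cells, 110 of 257 in WT and 130 of 328 in Fbn1 C1039G/+. Its level was 854 CPM (826 to 884) and 1224 CPM (1194 to 1254), a ratio of 1.43 (1.37 to 1.49), not called. A single cell held 607 of 3357 WT UMIs and another 683 of 6310 Fbn1 C1039G/+ UMIs. The share of cells was 42.8% and 39.6%, so the higher level was not carried by more cells. Of the receptor and related genes, Ntsr1 and Ntsr2 had 0 UMIs in both libraries.

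Markers of other cells also differed between the endothelial sets. The 8 interstitial markers summed to 4376 CPM in WT and 5889 CPM in Fbn1 C1039G/+ cells, with 4 called higher (Col1a1, Col1a2, Col3a1 and Postn) and Mfap4 called lower, beside the 6.88% of all measured genes called. All 8 were detected in both libraries, and per cell their sum ranged from 0 to 14331 CPM and from 139 to 24272 CPM. The gate itself limits Dcn, Col1a1, Col1a2 and Col3a1, which are among these markers. The 6 macrophage markers summed to 602 and 306 CPM, with a median of 0 per cell and a highest cell of 23609 and 25224 CPM. Of these, 5 were measured and 4 were called lower (C1qa, C1qb, C1qc and Lyz2). The 4 melanocyte markers summed to 145 and 37.4 CPM, with Pmel and Dct called lower. The 3 erythroid markers, all called higher, summed to 30.8 and 627 CPM, and 1 Fbn1 C1039G/+ cell reached 105265 CPM. The part of these markers in the differences of Prox1, Foxc2 and Cldn11 was not tested. Of the 4 cardiomyocyte markers, Myh6 was at 0 in both libraries, Actc1 and Nppa had at most 2 UMIs, and Tnnt2 was at 24.7 and 20.6 CPM in 9.73% and 16.2% of cells.

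The endothelium held cells of both sexes, and splitting by sex changed the result for the flow-induced pair. Cells with at least 2 Xist UMIs and no Y-linked UMI were taken as female (125 WT, 178 Fbn1 C1039G/+) and cells with a Y-linked UMI and no Xist UMI as male (96 and 103). Cells that met neither rule were left out of both sets. In WT, Prox1 was at 135 CPM in female and 171 CPM in male cells, both below the 173.3 CPM of all WT endothelial cells. Klf2 was 2346 and 3114 CPM in female cells, a ratio of 1.33 (1.28 to 1.38), and 2314 and 1454 CPM in male cells, a ratio of 0.629 (0.596 to 0.663). The male Fbn1 C1039G/+ cells were thus the low set, and the other 3 sets lay at 2314 CPM or above. Klf4 followed the same order, with 615 and 742 CPM in female cells (1.21, 1.12 to 1.30) and 564 and 324 CPM in male cells (0.575, 0.513 to 0.643). Medians per cell had these directions too, with 2083 and 2601 CPM for Klf2 in female cells and 1969 and 1280 CPM in male cells.

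In male cells 5 of the 8 genes were called, where 11.5% of 7336 measured genes were, 6.32% higher and 5.19% lower, and Klf2 and Klf4 were the 2 called lower. In female cells 4 were called, all higher, where 8.16% of measured genes were, 3.92% higher and 4.24% lower. The ratios of Prox1 and Foxc2 were above 1.5 in each sex, at 1.62 and 1.53 in female cells and 2.35 and 2.55 in male cells, and Cldn11 was at 1.59 and 1.52. Nfatc1 was 1.504 in female and 0.945 in male cells, Nts 1.49 and 0.962, and Gata2 1.00 and 1.49. Median depth was 11765 and 12492.5 UMIs in female cells and 11639 and 11058 in male cells. The summed immediate early genes, which tissue digestion induces, had ratios of 0.987 (0.958 to 1.02) and 0.948 (0.912 to 0.986). How many mice of each sex were pooled is not given in the sources used here, so sex and single mice cannot be told apart.

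**Figure D2:**
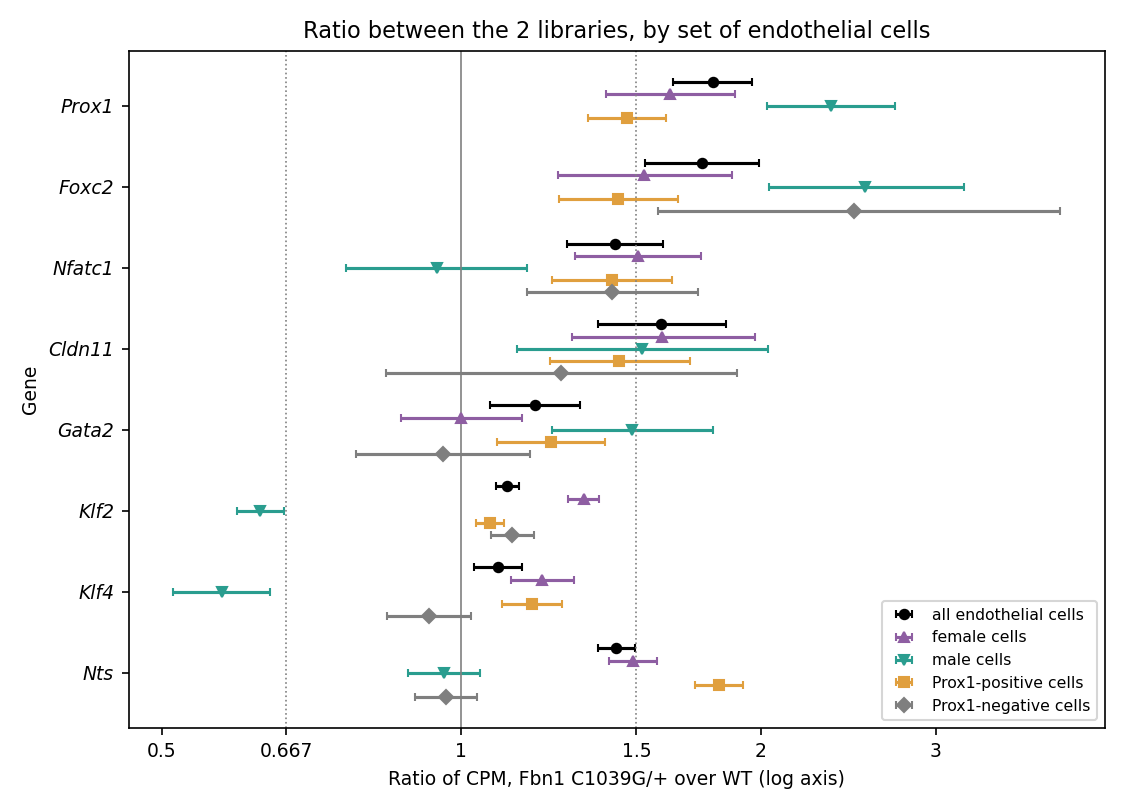
Ratio of CPM in the Fbn1 C1039G/+ library over WT for the 8 genes (log axis) in all endothelial cells, female, male, Prox1-positive and Prox1-negative cells, with 95% intervals for counting error. Solid and dotted lines mark a ratio of 1 and the 1.5-fold threshold. Klf2 and Klf4 lie below 1 in male cells and above 1 in female cells, while Prox1 and Foxc2 lie above 1 in each set in which they are drawn.

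Prox1, Foxc2, Klf2 and Klf4 were then compared cell by cell. Foxc2 was found in 67 of 128 Prox1-positive WT cells (52.3%, 43.3 to 61.2) against 25 of 129 Prox1-negative cells (19.4%, 13.0 to 27.3). In the Fbn1 C1039G/+ library it was found in 135 of 206 (65.5%, 58.6 to 72.0) against 32 of 122 (26.2%, 18.7 to 35.0). The difference was 33.0 points (21.4 to 43.3) and 39.3 points (28.5 to 48.6). Cells with a UMI of a gene were deeper than those without, with medians of 14631.5 against 9392 UMIs for Prox1 in WT and 13359.5 against 7809 in Fbn1 C1039G/+. Thinned to 3000 UMIs, Foxc2 was still found in 28.8% against 10.3% and in 46.2% against 17.7% of cells.

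Klf2 was in nearly all cells whatever their Prox1 count, 98.4% against 96.9% in WT and 96.1% against 97.5% in Fbn1 C1039G/+. Klf4 was in 78.1% of Prox1-positive and 82.2% of Prox1-negative WT cells, and in 74.3% and 72.1% in Fbn1 C1039G/+. At matched depth the shares of Klf4 separated, with 39.0% against 64.4% in WT (−25.4 points, −38.5 to −10.9) and 45.3% against 58.6% in Fbn1 C1039G/+ (−13.3 points, −24.2 to −1.98). Klf4 was thus detected less often in cells with a Prox1 UMI once depth was equal, in both libraries, but not at the cells' own depth.

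Foxc2-positive cells had Klf2 in 98.9% (WT) and 97.6% of cells, and Klf4 in 90.2% and 77.2%, against 74.5% and 69.6% of Foxc2-negative cells. The second of these differences had an interval that held 0, and thinned to 3000 UMIs both did. Klf4 cells were almost a subset of Klf2 cells, since 205 of 206 and 240 of 241 of them also had a Klf2 UMI. Only 6 WT and 11 Fbn1 C1039G/+ cells lacked Klf2. All 4 genes were found together in 58 WT cells (22.6%) and 101 Fbn1 C1039G/+ cells (30.8%), whose median depth was 22698.5 and 20255 UMIs, and Klf2 and Klf4 without the other 2 in 82 (31.9%) and 59 (18.0%). After thinning, all 4 were found in 2.37% and 5.31% of cells.

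**Figure D3:**
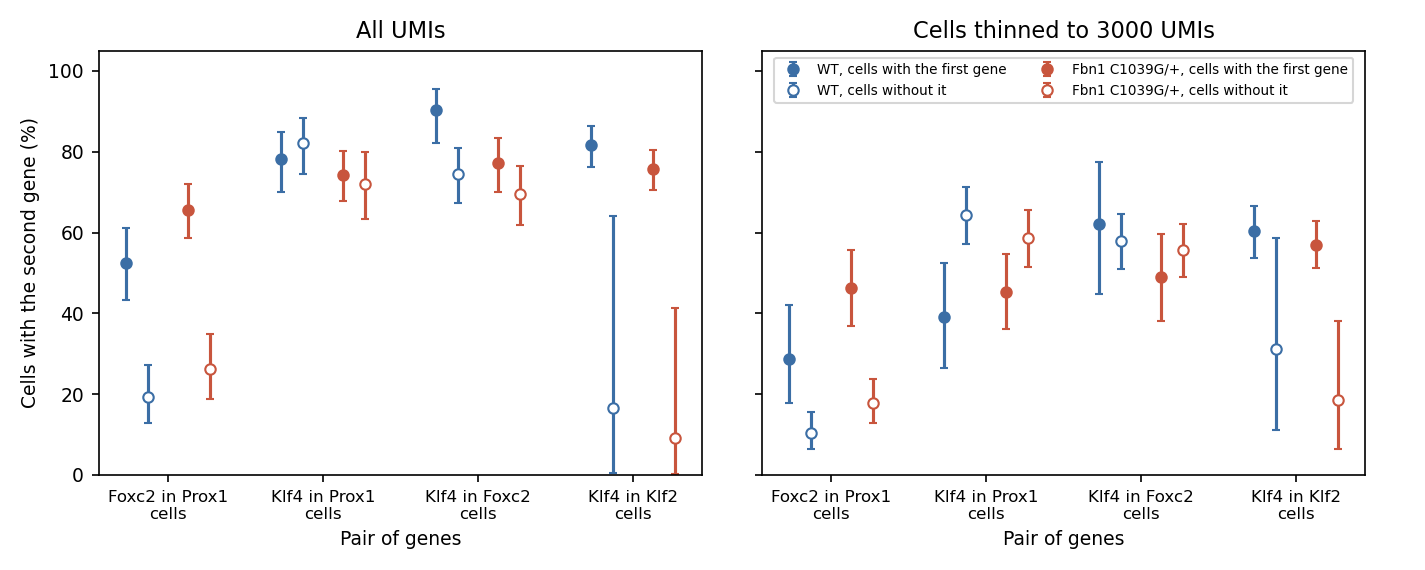
Percent of endothelial cells with a UMI of the second gene, among cells with (filled) and without (open) a UMI of the first gene, in both libraries, at the cells' own depth (left) and thinned to 3000 UMIs (right), with exact 95% intervals. Foxc2 is more often found in Prox1 cells in all 4 comparisons, and Klf4 is less often found in Prox1 cells on the right.

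Splitting the endothelium by Prox1 detection gave a wider set of differences. Of 6996 measured genes 5.80% were called in both libraries, 3.06% higher and 2.74% lower in Prox1-positive cells. Of the 7 genes other than Prox1, Foxc2 and Cldn11 were called. Foxc2 was 127 against 18.6 CPM in WT (6.83-fold, 4.66 to 10.4) and 183 against 46.3 CPM in Fbn1 C1039G/+ (3.95-fold, 3.05 to 5.203). Cldn11 was 92.3 against 31.5 CPM (2.93-fold, 2.14 to 4.08) and 133 against 39.7 CPM (3.35-fold, 2.53 to 4.53). With cells thinned before the split only Foxc2 stayed called, since too few Cldn11 UMIs remained in WT, although its ratios were 4.30 and 3.97. Klf2 was 1.24 and 1.18 times as high in Prox1-positive cells, Nfatc1 1.05 and 1.05, Gata2 1.15 and 1.47, and Klf4 0.893 and 1.13. Nts was lower in WT Prox1-positive cells (710 against 1074 CPM, 0.661) but not in Fbn1 C1039G/+ (1291 against 1037 CPM, 1.24).

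Other genes moved with this split. Of the lymphatic valve list, 18 of 25 were measured and 4 were higher in Prox1-positive cells in both libraries: the matrix gene Fn1 (2366 against 418 CPM in WT), the gap junction gene Gja4 (192 against 40.5 CPM), the ephrin gene Efnb2 (314 against 80.3 CPM) and Foxc1 (192 against 65.5 CPM). Sema3a and Gja1 of that list were lower. Of 13 measured targets of KLF factors, Thbd was higher and Aqp1, Wnt9b and Edn1 were lower, and of 8 valve endothelium genes Wnt9b, Edn1 and Hapln1 were lower. Of 8 genes listed as interstitial markers, Postn and Pdgfra were higher too (1253 against 260.2 and 411 against 37.9 CPM in WT). Pdgfra was at 263 and 338 CPM in the endothelial cells and at 113 and 81.0 CPM in the interstitial cells, so its level was higher in the endothelial gate. Postn was lower in the endothelial cells, at 860 and 1544 CPM, than in interstitial cells, at 1608 and 2270 CPM, and its part in the split was not tested.

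Of all pairs of the 8 genes, Prox1 and Foxc2 had the highest correlation across single cells in both libraries. Pearson's r of log-normalised levels was 0.53 in WT and 0.60 in Fbn1 C1039G/+ for Prox1 with Foxc2, and 0.43 and 0.57 for Klf2 with Klf4, over 257 and 328 cells that share a library and differ in depth. Klf4 and Nts had 0.47 and 0.40, and Prox1 with Klf4 −0.21 and −0.17. Among 9257 genes, those most like Prox1 were Pdgfra, Lsamp, Efnb2, Cldn5 and Foxc2 (0.53 to 0.62), and those most like Foxc2 were Lsamp, Pdgfra, Cldn5, Ephx2 and Prox1 (0.53 to 0.64). Klf4 itself was the gene most like Klf2, followed by Id1, Rhob, Crip2 and Slc9a3r2 (0.36 to 0.49 for these 4). Crip1, Slc9a3r2, Palmd, Jund and Nos3 were most like Klf4 (0.50 to 0.59). Wnt9b, which lines the valve surface and is set by flow, was at 0.61 and 0.49 with Klf4 and at −0.44 and −0.31 with Prox1.

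Within Prox1-positive cells the ratio between genotypes was 1.82 (1.72 to 1.92) for Nts, the 1 member called there, where 7.79% of measured genes were called, 4.13% higher and 3.66% lower. Within Prox1-negative cells Foxc2 was the 1 member called, where 8.90% were, 4.66% higher and 4.24% lower. The other ratios in Prox1-positive cells ran from 1.07 for Klf2 to 1.47 for Prox1. These 2 sets were chosen after the data had been seen.

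Outside the endothelium, Prox1, Gata2, Cldn11 and Nts were nearly absent, Foxc2 was low and the other 3 were broadly present. Cells of other types were taken by gates on their own markers, and a mural cell could also meet the interstitial gate. In the mural gate of WT and Fbn1 C1039G/+, Dcn was in 100% of cells, at 14151 and 17456 CPM. Postn was at 2625 and 3243 CPM, against 1608 and 2270 CPM in interstitial cells. Cspg4 was at 8.99 and 17.7 CPM, against 24.9 and 31.3 CPM. Rgs5 was higher in the mural gate, at 1211 and 1114 against 70.5 and 78.03 CPM, and so was Notch3. Whether the mural gate holds a type apart from interstitial cells was not tested. Prox1 was at 2.93 and 1.89 CPM in 6879 WT and 6853 Fbn1 C1039G/+ interstitial cells, where it was found in 2.78% and 1.69% of cells, and at 1.95 and 1.26 CPM in macrophages. Macrophages, which should lack these genes, give the background of free RNA and doublets at a median of 8234 and 7376 UMIs, and Prox1 had a UMI in 1.52% and 0.686% of them, Nts in 0.127% and 0.915%. Foxc2 was at 11.9 and 13.8 CPM in interstitial cells (10.3% and 12.6% of cells) and 20.8 and 18.1 CPM in mural cells (20.6% and 20.5%). In macrophages it had 6 and 0 UMIs, where the exact upper bound for 0 is 0.515 CPM and the floor of 3 counts is 0.419 CPM. The interstitial and mural shares thus stood above the share in macrophages.

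Nfatc1 was at 49.1 and 47.7 CPM in macrophages and 89.4 (69.8 to 113) and 61.5 (37.0 to 96.0) CPM in lymphoid cells, where NFAT factors act in activation. Klf2 was at 459 and 391 CPM in interstitial cells and 585 and 317 CPM in macrophages, and Klf4 at 99.5 and 67.4, and 145 and 68.8 CPM. Both were called lower in Fbn1 C1039G/+ macrophages, with ratios of 0.542 (0.515 to 0.570) and 0.474 (0.426 to 0.528), where 5.26% of genes were called, 1.52% higher and 3.74% lower. In interstitial cells the ratios were 0.850 (0.837 to 0.864) and 0.678 (0.653 to 0.703), not called, where 2.14% of genes were called, 0.909% higher and 1.23% lower. In mural cells they were 1.08 and 0.775, not called, where 4.69% were called, 1.97% higher and 2.73% lower. The immediate early genes summed to 7788 and 4699 CPM in interstitial cells (0.603), to 16050 and 6583 CPM in macrophages (0.410) and to 3885 and 3798 CPM in endothelial cells (0.978). Within the endothelial sum, Atf3 (2.22) and Hspa1a (1.77) were called higher and Fosb (0.304) and Fos (0.591) lower, 4 of 18 genes. Of all genes measured in endothelial cells 6.88% were called, 3.49% higher and 3.39% lower. In mural cells the ratio of the immediate early sum was 0.592, with Klf2 at 1.08 and Klf4 at 0.775. In male endothelial cells the ratio of this sum was 0.948 (0.912 to 0.986), and Klf2 and Klf4 were called lower. The part of digestion in these differences was not tested.

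**Figure D4:**
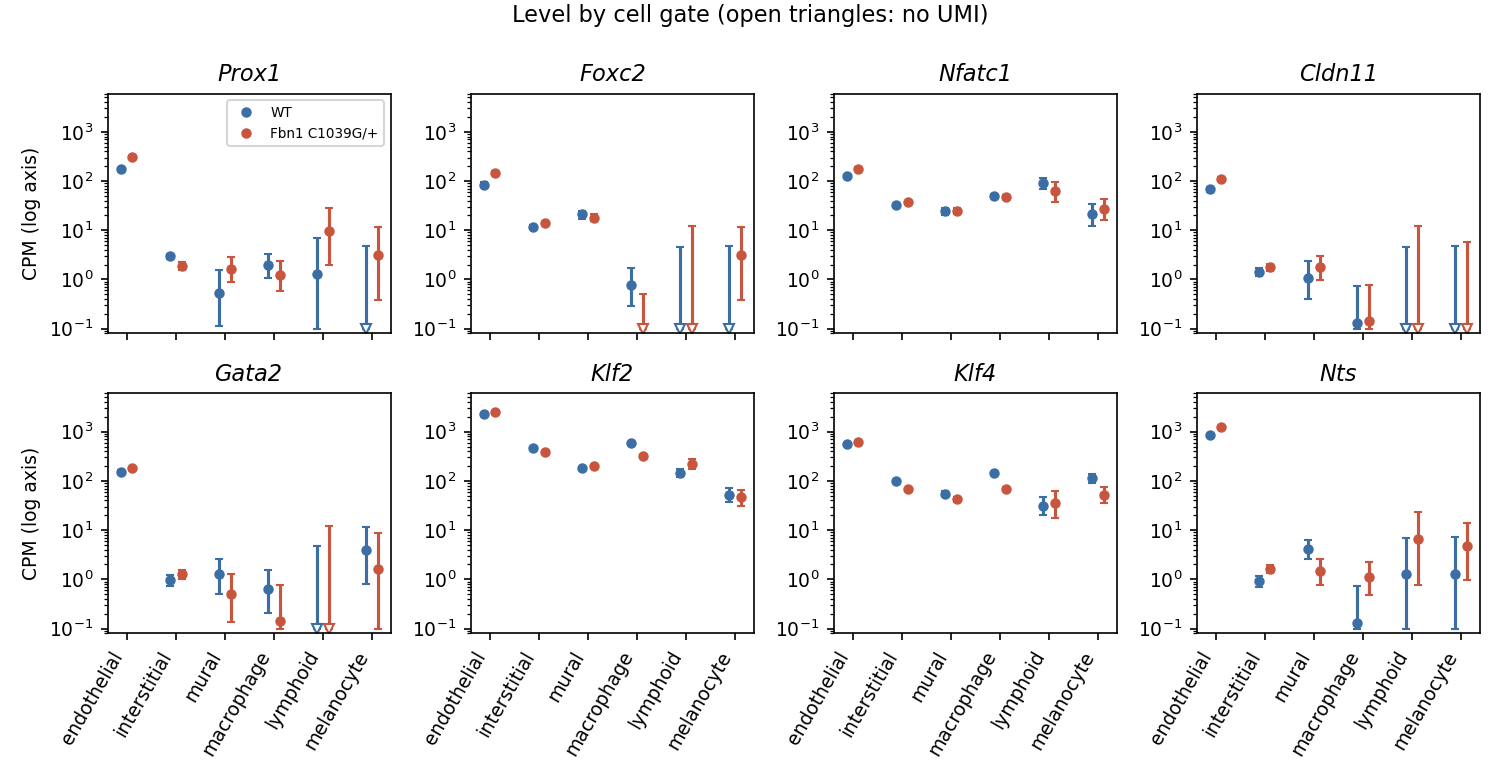
Level in CPM (log axis) of the 8 genes in 6 cell gates of the WT and Fbn1 C1039G/+ libraries, with exact 95% intervals for counting error and open triangles where no UMI was seen. Prox1, Gata2, Cldn11 and Nts are at or above 68.2 CPM in endothelial cells and under 10 CPM elsewhere, while Nfatc1, Klf2 and Klf4 are present in all gates.

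The 6 lymphatic-type WT cells left out had Prox1 at 401 CPM (317 to 502) and Nts at 287 CPM (216 to 373), while Klf2 was at 500.5 CPM (405 to 611), below its 2288 CPM in the other WT endothelial cells. These 6 cells were not a clean set, as the macrophage gene C1qa had 132 UMIs, all in 16.7% of them. A single cell held 49 of their 96 Klf2 UMIs. Foxc2 had 3 UMIs, all in 1 of the 6 cells. This is 15.6 CPM (3.23 to 45.7), against 84.3 CPM in the other WT endothelial cells. Gata2 and Cldn11 had 0 UMIs, where the exact upper bound is 19.2 CPM and the floor of 3 counts is 15.6 CPM. Lymphatic vessel genes were mixed in the other endothelial cells. Lyve1 was in 5.45% and 3.05% of cells and Pdpn in 3.11% and 3.35%, while Flt4 was in 48.2% and 49.7%, Sox18 in 65.4% and 67.7% and Nr2f2 in 46.7% and 42.1%. Ccl21a was at 0, and the gate itself limits Ccl21a, Mmrn1 and Reln. In the lymphoid gate of the Fbn1 C1039G/+ library, Ccl21a had 51 UMIs and Mmrn1 13, each in 1.56% of 64 cells. Of 12 genes of lymphatic vessel identity 5 were measured, and Nrp2 and Maf were called lower in Fbn1 C1039G/+.

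Gene lists of the pathways were then compared between genotypes, where the same 6.88% background holds. Of the flow-sensing and ERK5 pathway 16 of 17 were measured, with the channel gene Trpv4 called higher (33.1 and 51.2 CPM, 1.55) and Mef2c lower (55.7 and 20.6 CPM, 0.369), and a median log2 ratio of −0.033. Piezo1, a stretch and flow channel, was 104 and 143 CPM, a ratio of 1.37 that was not called. Of 19 genes that KLF factors regulate 14 were measured. Thbd, the anticoagulant thrombomodulin, was called higher (322 and 510 CPM, 1.59), as was Ace (18.8 and 29.1 CPM, 1.54), and Wnt9b was lower (356 and 225 CPM, 0.631). Nos3, the endothelial nitric oxide synthase, was 462 and 357 CPM, a ratio of 0.773 that was not called.

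Of the lymphatic valve list 2 of 18 measured were higher, Fn1 (1595 and 2651 CPM, 1.66) and Efnb2 (222 and 387 CPM, 1.74), and Sema3a was lower (83.2 and 35.3 CPM, 0.424). Of the calcineurin-NFAT list 17 of 20 were measured, with Rcan1, a feedback inhibitor and known target of calcineurin signalling, higher (72.0 and 137 CPM, 1.90), Nfatc2 higher (1.65) and Rcan3 lower (0.607). Of the GATA, ETS and SOX factors 12 of 13 were measured and 0 were called. Of these, Gata4 was 168 and 182 CPM and Gata6 113 and 124 CPM. Of 8 measured KLF family genes other than Klf2 and Klf4, Klf12 was lower (20.4 and 8.34 CPM). Of 7 measured junction genes Cldn5 was higher (156 and 243 CPM, 1.56) and Jam2 lower (178 and 109.8 CPM, 0.617). These lists were chosen with earlier results known, and their counts describe the 2 libraries.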

How the data were processed

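Single-cell 3′ libraries were made with the 10x Genomics v3.1 kit, 1 per genotype, per the labels. The authors deposited unnormalised UMI counts for each gene in each barcode, and the submitters' processing notes name mm10. They also name Cell Ranger 3.1.0, per the labels, and the file headers name 5.0.1. Empty droplets were not used here, so free RNA was not measured.

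UMIs were summed over gated cells and expressed as CPM, in Python 3.11.15 with numpy 2.4.6, scipy 1.17.1 and pandas 2.3.3. Doublets were not removed, and alternatives without likely doublets used scanpy 1.11.5. Intervals at 95% were Poisson for CPM, conditional binomial for ratios and Clopper-Pearson for shares (all exact), and Newcombe's for a difference of 2 shares. The call rule was tried on simulated Poisson counts, the same model as the intervals. This check cannot show how the rule behaves with spread between cells or mice. Motifs were searched on both strands. Of cells near the gate, 9 WT and 15 Fbn1 C1039G/+ had 5 or 6 endothelial UMIs. Genes named beside the 8 were gate genes and markers, called list members, up to 4 others of a list in its order, and, for Prox1, Foxc2, Klf2 and Klf4, the 5 genes with the highest smaller Pearson r of the 2 libraries, among genes in at least 10% of cells of each. Wnt9b was also followed across cells. A cell that met 2 or more gates was in none of the other types, except mural cells that also met the interstitial gate. The 8 genes, 22 lists and tests were chosen with earlier results of these data known. A result for the list of KLF targets is not reported here.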

Additional observations from a re-analysis of the deposited data

Results flagged for a closer look

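Klf2 and Klf4 had ratios of Fbn1 C1039G/+ over WT above 1 in the endothelium as a whole (1.11 and 1.09) and below 1 in some other cell types, at 0.850 in interstitial cells and 0.542 in macrophages for Klf2, and at 0.678 in interstitial cells, 0.775 in mural cells and 0.474 in macrophages for Klf4. Klf2 in mural cells was at 1.08. The mural gate was not tested as a type apart from interstitial cells. In lymphoid cells Klf2 was at 145 CPM (119.5 to 173.8) in WT and 223 CPM (173.7 to 282.5) in Fbn1 C1039G/+, intervals that barely overlap. Klf4 was at 31.5 and 35.6 CPM there, with widely overlapping intervals. Ratios were not computed for lymphoid cells. The difference between cell types was not tested, because each has 1 library per genotype.

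Within the endothelium the 2 genes also went in opposite directions by sex, with ratios of 1.33 in female and 0.629 in male cells for Klf2, and 1.21 and 0.575 for Klf4. In interstitial cells the ratio of Klf2 was 0.952 in female and 0.729 in male cells, and in macrophages 0.626 and 0.470. The difference between sexes was not tested.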

How the results depend on the processing

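Over 18 alternative settings of the comparison between genotypes, Prox1 ranged from 1.62 to 2.35 and Foxc2 from 1.53 to 2.55, and both stayed called in all but the 2-fold rule, where 0 of the 8 genes were called. Cldn11 was called in 15 and ranged from 1.47 to 1.82. Nts was called in 2 and ranged from 0.962 in male cells to 1.73 without the 8% of cells with the highest doublet scores. Nfatc1, Klf2 and Klf4 were each called in 1 and Gata2 in 0. Male cells alone gave 5 calls, with Klf2 and Klf4 lower. Added after the data had been seen, Prox1-positive cells alone gave 1 call and Prox1-negative cells alone gave 1. For the split by Prox1, thinning left 1 call of 2. Klf4 was above 1 in 15 of the 18 and Klf2, Nfatc1 and Nts in 17, and male cells gave a ratio below 1 for each of these 4. The splits of other cell types by sex were also chosen after the data had been seen. Depth limits detection of the low genes, as shares fall when cells are thinned. No paired analysis was possible because each genotype has 1 library, so the libraries share only 1 replicate number.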
